A study of Mus musculus with 7 samples.

Results

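Csf1r encodes the receptor for the cytokine CSF1, and the stretch of chromosome 18 that holds it was followed through osteoclast (OC) differentiation with the peaks of 2 transcription factors, PU.1 and MITF. A peak was a member when its centre lay in the gene or within 50 kb of either end on mm9, the mouse genome build of the lists, a window from 61215226 to 61341803. Of 238652 peaks in 6 lists, 64 met this rule. Overlapping peaks were merged into 25 sites, and every one of the 25 carried a PU.1 peak in at least 1 list. The rule picks peaks by position, but the locus itself was chosen with its PU.1 cluster in OCs known, so the strength of that cluster is given as a description.

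The cells came from the bone marrow of C57BLACK6 mice of 4 to 6 weeks and were grown for 3 days in 50 ng per mL CSF1, which all groups received. Myeloid precursors (MPs) had CSF1 alone, and the other cells had 100 ng per mL RANKL for 36 h or, for OCs, 72 h. Chromatin was precipitated with 5 µg of a PU.1 or MITF antibody at each of the 3 times, and a control library was made from MPs with non-specific IgG. There was 1 library per condition and no replicate, so the errors below cover counting only and each test compares a pair of libraries, not the conditions at large. Whether animals were pooled was not given in the sources used here, and the cell type rests on the labels alone, since binding data hold no expression of marker genes.

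CSF1R is a receptor tyrosine kinase of the platelet-derived growth factor receptor family. It binds CSF1 and a second ligand, interleukin 34, and its signal keeps monocytes, macrophages and osteoclast precursors alive and dividing. OCs form when such precursors receive RANKL on top of CSF1. PU.1 is the ETS family factor on which the myeloid lineage depends, and it binds purine-rich sites with a GGAA core. MITF is a basic helix-loop-helix factor that binds E-boxes and acts with PU.1 on osteoclast genes. In macrophages Csf1r is known to be controlled from a promoter without a TATA box and from a conserved enhancer in an intron near the start of the gene. No sequence of this locus is printed here.

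Csf1r runs on the plus strand from 61265226 to 61291803. Positions below are distances of a site's centre from 61265226, the start of the gene and of its form with 22 exons, and intron numbers refer to this form. Pdgfrb, the gene of the platelet-derived growth factor receptor beta, lies upstream on the same strand and ends at 61244715. Hmgxb3, which encodes an HMG-box protein, lies on the minus strand from 61290933 to 61336704 and overlaps the 3′ end of Csf1r. The window therefore also holds most of Pdgfrb and the whole of Hmgxb3, and a peak in it is not by that fact a peak of Csf1r.

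Each peak has a score, the number of sequenced fragments (tags) in it scaled to a common library size. Scores were whole multiples of 1 value per list, so the tags could be recovered. A tag was worth 1.7058 in the PU.1 MP library, 1.4781 at 36 h and 1.4684 in OCs, and 1.0388, 0.97336 and 1.1418 in the MITF libraries of the same times. The lowest peaks of the PU.1 lists had scores of 10.2 to 10.3 and those of the MITF lists 9.1 to 9.7, and weaker binding could not be seen. PU.1 peaks were 150 bp wide in MPs and OCs but 190 bp at 36 h. The 349 peaks of the IgG list included 0 in the window, the nearest lying 4322 kb from the gene start, and 0 of the 64 member peaks overlapped an IgG peak. This control library was the smallest, with 1 tag worth 3.2047, and its lowest peak had a score of 22.4.

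PU.1 had 17 peaks in the window in MPs, 19 at 36 h and 22 in OCs, out of 76243, 71941 and 77072 in the lists. Their summed scores were 916.0, 972.7 and 957.5 over 2550, 3610 and 3300 bp of called peak, with a mean score per peak of 53.9, 51.2 and 43.5. Peaks called only after RANKL were mostly low, and with a minimum of 2 times the lowest score the counts were 14, 16 and 15, with no rise from 36 h to OCs. MITF had 3 peaks in MPs, 2 at 36 h and 1 in OCs, out of 5413, 3540 and 4443 in the lists. The summed scores were 48.90, 45.70 and 16.00. Over the genome, 2844 of the 5413 MITF peaks of MPs were paired with an overlapping peak in OCs. Many calls were thus lost elsewhere too, and nothing particular to the locus is read from the fall.

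**Figure D1:**
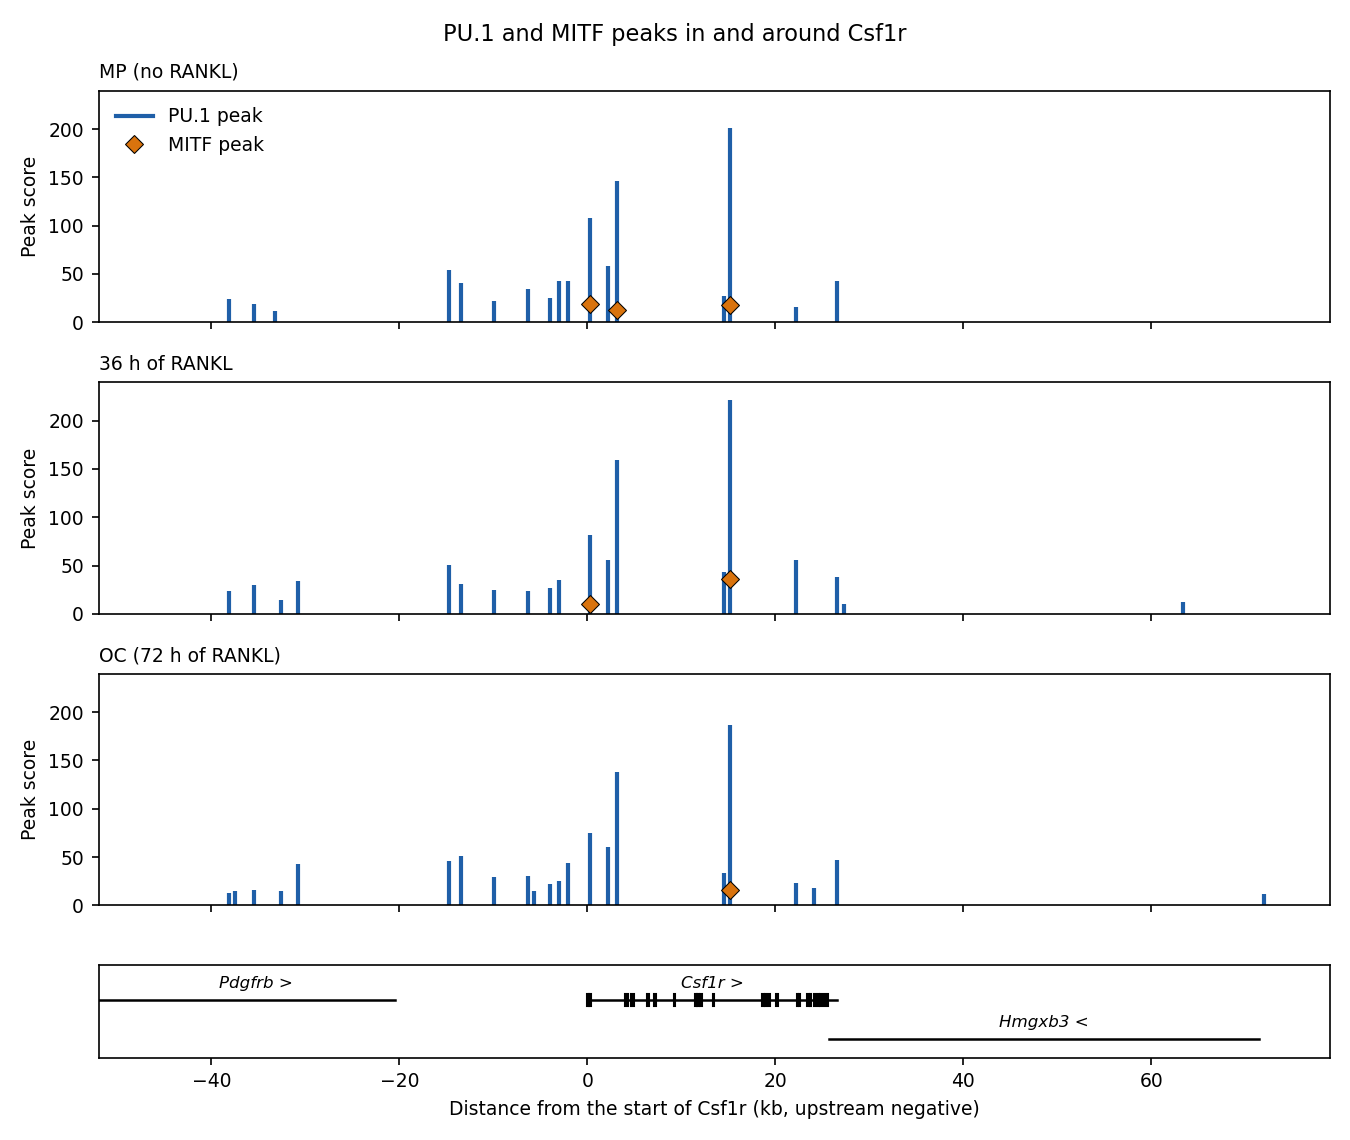
Peak scores (vertical axis, tags scaled to a common library size) against distance from the start of Csf1r in kb (horizontal axis), with 1 panel for each time. Blue bars are PU.1 peaks and orange diamonds MITF peaks, 1 library each, and the lowest panel shows the 3 genes with their strand (black boxes, the 22 exons of Csf1r; exons of the other genes are not drawn). The tallest bar in every panel is at +15.2 kb, with scores of 201.3, 221.7 and 186.5, and diamonds stand only on the bars at +0.3, +3.2 and +15.2 kb.

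The introns of Csf1r carried the strongest PU.1 signal. The highest site was at +15.2 kb in intron 11, from 61280287 to 61280514, with a score of 201.3 in MPs, 221.7 at 36 h and 186.5 in OCs. These are 118, 150 and 127 tags, and the exact 95% Poisson intervals of the scores, 167 to 241, 188 to 260 and 155 to 222, overlap. The peak ranked 1320 of 76243 PU.1 peaks in MPs, 396 of 71941 at 36 h and 1092 of 77072 in OCs. By itself it made up 22.0%, 22.8% and 19.5% of the PU.1 score of the window.

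The second site by score was at +3.2 kb in intron 2, from 61268288 to 61268508. Its scores were 146.7 in MPs (95% interval 117 to 181), 159.6 at 36 h (131 to 193) and 138.0 in OCs (112 to 169), from 86, 108 and 94 tags. Intron 2 held another site at +2.1 kb, from 61267275 to 61267473, with scores of 58.0, 56.2 and 60.2 from 34, 38 and 41 tags. The pair kept its order at each time, the +3.2 kb site being the higher, and the intervals of neither site separate any of the times.

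The promoter site was at +0.3 kb, from 61265398 to 61265588, in untranslated sequence of exon 2. Its centre lay 11 bp from the start of the nearest of the 4 annotated Csf1r transcripts, which begin at 0, 247, 280 and 307 bp. Its PU.1 score was 107.5 in MPs (82.6 to 137), 81.3 at 36 h (61.2 to 106) and 74.9 in OCs (55.8 to 98.5), from 63, 55 and 51 tags. The value was highest in MPs and lowest in OCs, with intervals that overlap between all times. The promoter ranked below the +15.2 and +3.2 kb sites and above the other intronic sites at every time, and its share of the window's PU.1 score was 11.7%, 8.36% and 7.82%.

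The site at +22.2 kb in intron 15, from 61287369 to 61287559, had another course. Its PU.1 score was 15.4 in MPs (7.02 to 29.1), 56.2 at 36 h (39.7 to 77.1) and 23.5 in OCs (13.4 to 38.2), from 9, 38 and 16 tags. The 36 h interval lies above those of both other times. Among all PU.1 peaks it ranked 51308 in MPs, 13625 at 36 h and 37860 in OCs. The remaining intronic sites were lower: +14.5 kb in intron 11 had 27.3, 42.9 and 33.8, and +24.1 kb in intron 19 was called in OCs alone, at 17.6. All intronic sites together made up 49.0% of the PU.1 score of the window in MPs, 55.2% at 36 h and 48.0% in OCs.

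**Figure D2:**
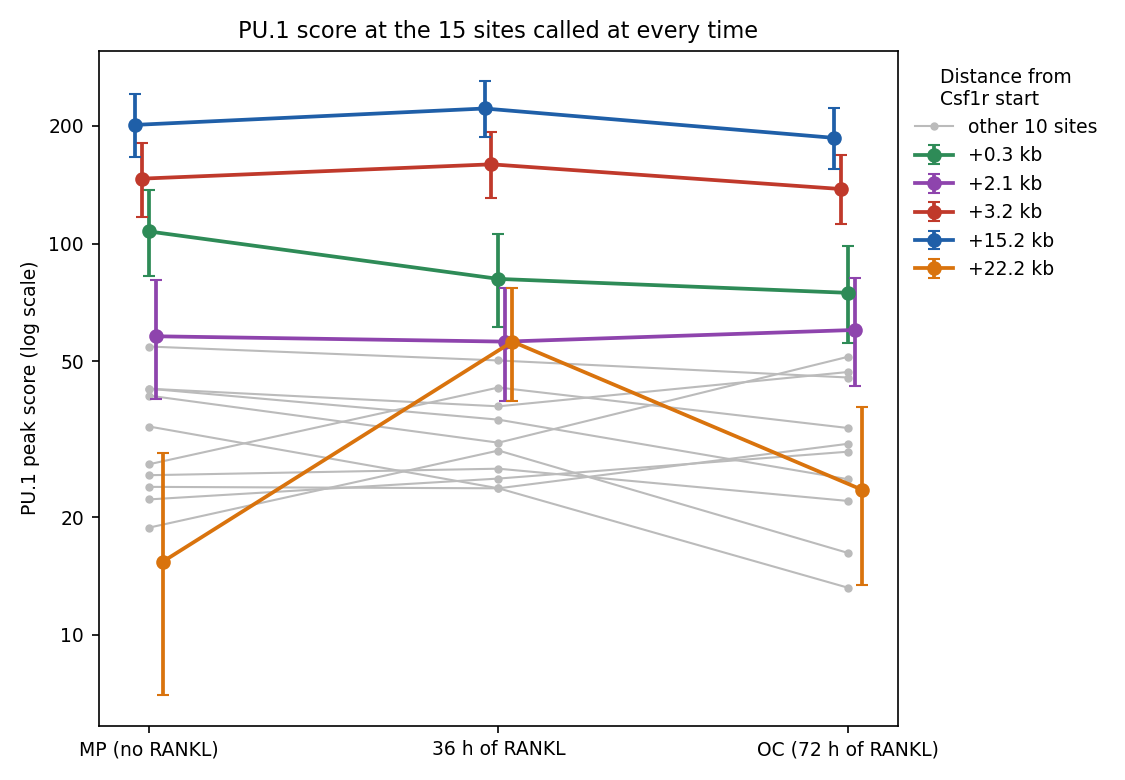
PU.1 peak score on a log axis at the 3 times for the 15 sites called at each of them, 1 library per time. Coloured lines are the 5 sites with the highest scores, with bars for the exact 95% Poisson interval of counting, and grey lines the other 10. The +22.2 kb line rises from 15.4 to 56.2 and returns to 23.5, while the +15.2 and +3.2 kb lines do not go below 186.5 and 138.0.

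Upstream of the gene, between its start and the end of Pdgfrb, lay 8 intergenic sites. The farthest of them, at -14.7 kb, was the highest in MPs and at 36 h, with scores of 54.6, 50.3 and 45.5, and the site at -13.4 kb had 40.9, 31.0 and 51.4. The site at -3.0 kb had 25, 24 and 17 tags at the 3 times. The site at -2.1 kb was called in MPs at 42.6 and in OCs at 44.1 but not at 36 h, in a list whose lowest score is 10.3. The lists give no tags where no peak was called, so a low signal there and a missed call cannot be told apart.

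The sites at -9.9, -6.3 and -4.0 kb were called at every time with scores from 22.0 to 34.1, and the site at -5.6 kb only in OCs, at 14.7. No upstream intergenic site reached the promoter's score at any time. Within the introns of Pdgfrb lay 6 further sites, of which 2, at -38.1 and -35.5 kb, were called at every time. The site at -30.8 kb, in intron 15 of Pdgfrb, was absent from the MP list, had a score of 34.0 at 36 h and reached 42.6 in OCs, the highest in that gene. The site at -32.6 kb had the same pattern of calls with 14.8 and 14.7. The site at -33.2 kb was called only in MPs, at 11.9, and that at -37.5 kb only in OCs, at 14.7.

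On the downstream side 1 site stood out, at +26.6 kb, with scores of 42.6, 38.4 and 47.0. It runs from 61291707 to 61291899, and its centre lies just beyond the annotated end of Csf1r, in coding sequence of exon 21 of Hmgxb3. The other 3 downstream sites were each called at 1 time and were near the lowest scores of their lists. They were +27.4 kb at 36 h with 10.3, +63.4 kb at 36 h with 11.8, and +72.0 kb in OCs with 11.7. The longest stretch without a site, 36.1 kb, lay between the +27.4 and +63.4 kb sites in the body of Hmgxb3.

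Of the 25 sites, 15 were called for PU.1 at every time, 4 only in OCs, 2 only at 36 h, 1 only in MPs, 2 at 36 h and in OCs, and 1 in MPs and OCs. The 15 are 60% of the sites, beside 50.5% of the 102370 merged PU.1 sites of the genome, and nothing particular to the locus is read from this. The 10 sites not called at every time accounted for 13 peaks with scores from 10.3 to 44.1, and 9 of the 13 were under 20. Absence from a list is thus mostly seen at sites near the limit of calling, the exceptions being -30.8 and -2.1 kb. When peaks were stitched over gaps at the usual distance of HOMER for superenhancers, 1 region covered the locus from the -14.7 kb to the +26.6 kb site, and at 36 h to +27.4 kb. In OCs this region held 16 sites, of which 13 were called at every time. Outside it 2 of 9 sites were. The region was stitched from the OC peaks, so every site in it was called in OCs, which sites outside it need not be. The 2 counts are therefore not alike, and nothing is read from their difference.

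The stitched region was 41426 bp long in MPs, 42215 bp at 36 h and 41428 bp in OCs. Its summed PU.1 score was 861.4 from 14 peaks in MPs, 858.8 from 14 at 36 h and 844.4 from 16 in OCs. By this sum it ranked 243 of 30623 regions in MPs, 127 of 30288 at 36 h and 213 of 30859 in OCs, which is within the top 0.794%, 0.419% and 0.690%. The rank moves with the stitching distance, from 85 in MPs at 5 kb to 489 at 20 kb, but the region itself then differs. At 5 kb the region over the gene start ended at +3.2 kb, where 11.4 kb without a site begin, and left out the +15.2 kb site. At 20 kb it also took in the sites in Pdgfrb.

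The tags of overlapping peaks were compared between times with an exact binomial test against the median ratio of all pairs in the genome, with Benjamini-Hochberg adjustment over all pairs, and a pair was called when the adjusted p was under 0.05 and the change at least 2-fold. Between MPs and 36 h, 1 of 15 pairs of the window was called, beside 1.05% of the 56340 pairs of the genome. This was the +22.2 kb site, which was higher at 36 h by 2.0 on the log2 scale (95% interval 0.92 to 3.23, exact binomial p = 5.04e-05, adjusted p = 0.0103). Pairs called higher made up 0.341% of the genome. The other 14 differences ran from -0.40 to 0.78 and did not pass the test.

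The test behind the call at +22.2 kb allows for counting noise alone. In the genome 10.9% of the pairs of these 2 libraries had an unadjusted p under 0.05, so they differed by more than counting. With a beta-binomial test whose spread was taken from all pairs, added after the data had been seen, the same log2 change of 2.0 had an adjusted p of 1.0, and 1 pair of the genome was called. The 36 h peaks were also wider than those of MPs; the median ratio of 1.0588 takes this up on average, and its part at a single site was not tested.

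Between 36 h and OCs 0 of 17 pairs were called by the exact binomial test, beside 0.0707% of 58013 pairs, and 2 of the 17 had an unadjusted p under 0.05, as had 6.45% of all pairs. The +22.2 kb site was lower in OCs by a log2 difference of -1.36 (-2.31 to -0.49, exact binomial p = 9.95e-04, adjusted p = 0.236). The +15.2 kb site had a difference of -0.36 (-0.71 to -0.00, exact p = 0.0410, adjusted p = 0.737). The promoter differed by -0.22 (-0.80 to 0.35). At +22.2 kb the 36 h value was at least 2-fold above both others, which was so at 366 of 51652 sites called at all times, or 0.709%, counted without a test.

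Between MPs and OCs 0 of 16 pairs were called by the exact binomial test, beside 0.156% of 60100 pairs, and 0 had an unadjusted p under 0.05, beside 7.84% of all pairs. The differences ran from -0.83 at -38.1 kb to 0.64 at +22.2 kb, with a median of -0.07. The +15.2 kb site differed by -0.09 (95% interval -0.46 to 0.29) and the +3.2 kb site by -0.06 (-0.50 to 0.37). The promoter had a difference of -0.50 (-1.06 to 0.06, exact p = 0.0742, adjusted p = 0.716), so a fall to below its MP level by up to 1.06 on the log2 scale or no change are both within the interval. The intervals at -2.1, +2.1, +3.2, +15.2 and +26.6 kb lay within 2-fold, and those of the other sites reached about 2-fold or beyond it in at least 1 direction. With the beta-binomial test 0 pairs of the window were called in each comparison.

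**Figure D3:**
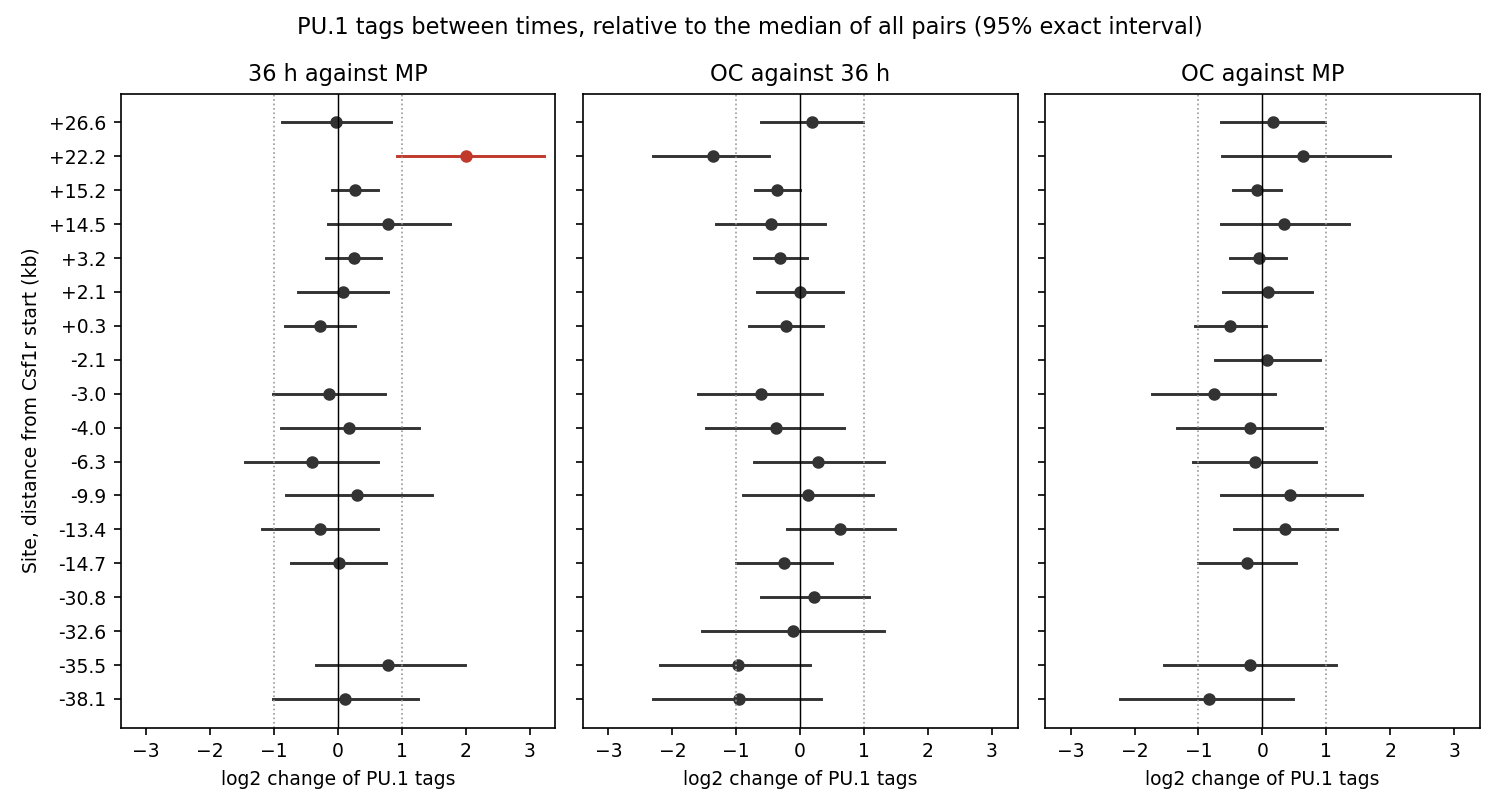
Log2 change of PU.1 tags at each site of the window (vertical axis, distance from the start of Csf1r in kb) for 36 h against MPs, OCs against 36 h and OCs against MPs, relative to the median of all pairs of the genome. Points are the estimates and lines the exact 95% intervals of counting, dotted lines mark 2-fold, and the called site is red. The +22.2 kb site is at 2.0 in the first panel and at -1.36 in the second, and the intervals of the +3.2 and +15.2 kb sites stay within 2-fold in all 3.

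MITF peaks lay at the 3 highest PU.1 sites of the locus and at no other. At +15.2 kb the MITF score was 17.7 in MPs (10.3 to 28.3), 36.0 at 36 h (25.4 to 49.6) and 16.0 in OCs (8.74 to 26.8), from 17, 37 and 14 tags. At the promoter it was 18.7 in MPs (11.1 to 29.6) and 9.7 at 36 h (4.67 to 17.9), from 18 and 10 tags, and no peak was called in OCs. At +3.2 kb a MITF peak of 12 tags was called in MPs (score interval 6.44 to 21.8) and none later. In MPs the promoter and the +15.2 kb site were thus of like height for MITF, although PU.1 was higher at the latter by their scores.

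The MITF score was 8.79%, 8.52% and 17.4% of the PU.1 score at +15.2 kb, +3.2 kb and the promoter in MPs. These percentages compare different antibodies and say nothing of the amount of each protein. The centres of the MITF and PU.1 peaks were 1 to 28 bp apart. Each of the 3, 2 and 1 MITF peaks of the window overlapped a PU.1 peak of the same time, so the locus had no MITF peak without PU.1. Outside the window, the nearest MITF peak upstream was -298 kb from the gene start in all 3 lists.

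The MITF pair at +15.2 kb was the only one that could be tested between MPs and OCs. Its log2 difference was -0.04 (-1.17 to 1.07, adjusted p = 1.0, exact binomial test), beside 0% called of 2844 pairs of the genome, of which 92, or 3.23%, had an unadjusted p under 0.05. The change of MITF minus the change of PU.1 at this site was 0.05 on the log2 scale (exact conditional p = 1.0), and of 2815 sites tested in this way 0 were called and 65 had an unadjusted p under 0.05. The interval of the MITF change reaches 2-fold on both sides. The MITF list of 36 h was not tested, because its peaks run from 150 to 1387 bp in width. Its peak at +15.2 kb was 214 bp wide against 150 bp at the other times. For the promoter and the +3.2 kb site the lists give no tags where no peak was called, so the loss of a call was not tested. It says only that no peak was called, in lists whose lowest scores are 9.7 at 36 h and 9.1 in OCs.

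Over the window 3 of 17 PU.1 peaks carried MITF in MPs, or 17.6% (exact binomial 95% interval 3.80 to 43.4), beside 6.95% of all PU.1 peaks. At 36 h the share was 10.5% (1.30 to 33.1) beside 4.62%, and in OCs 4.55% (0.115 to 22.8) beside 5.38%. The interval contains the share of all peaks at each time. It treats neighbouring peaks of 1 locus as independent, which they need not be, so nothing is concluded from it. MITF calls depend strongly on the PU.1 score, so each site was also set beside the peaks of its list with a PU.1 score within 10% of its own. At +15.2 kb 80.4% of such peaks had MITF in MPs, 83.4% at 36 h and 68.3% in OCs. At +3.2 kb the shares were 52.9%, 53.4% and 41.1%, and at the promoter 27.7%, 9.17% and 9.16%.

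A MITF call was thus the commoner state of peaks like the +15.2 kb site and the rarer one of peaks like the promoter, which nonetheless had it in MPs and at 36 h. For all other sites of the window the share was at most 4.33%. In MPs the MITF score of the promoter, 18.7, was above the median of 11.4 among peaks of like PU.1 score that had MITF, but at 36 h its 9.7 was below their median of 11.7. At +15.2 kb the MITF score of 17.7 was above the median of 15.6 in MPs, 36.0 was below 47.7 at 36 h, and 16.0 was above 14.8 in OCs.

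**Figure D4:**
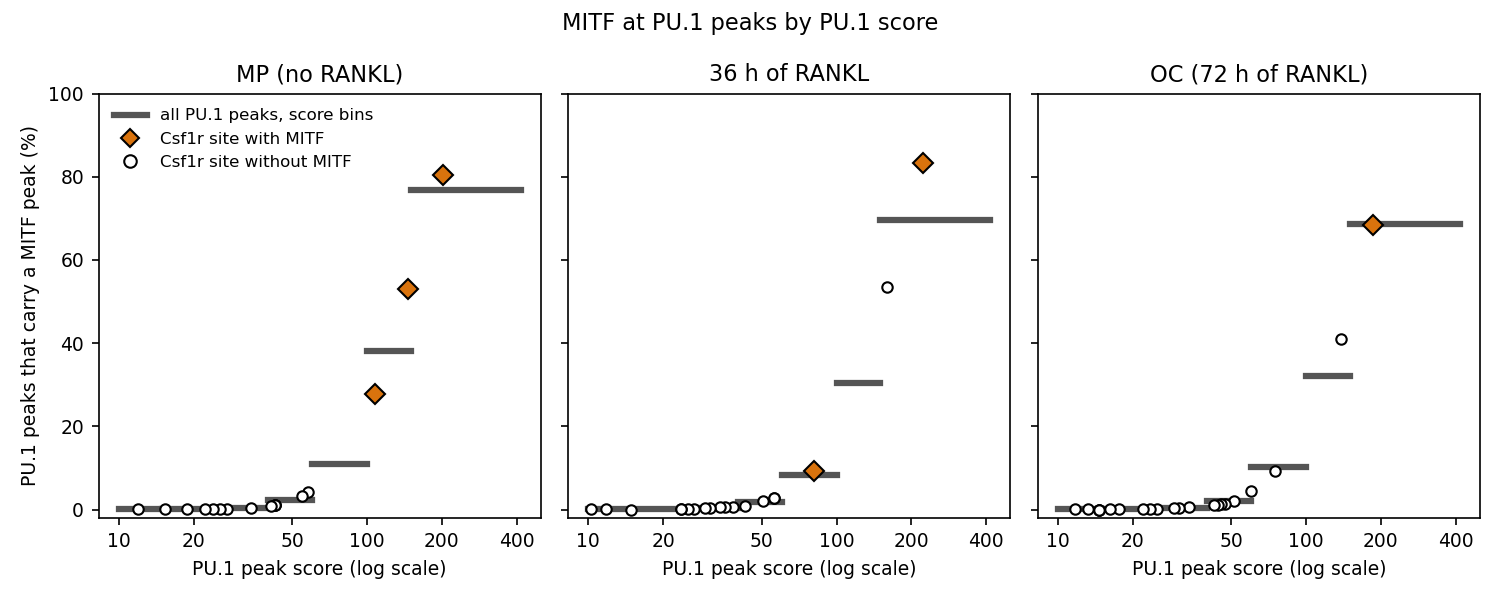
Share of PU.1 peaks that carry a MITF peak of the same time (vertical axis, %) against PU.1 peak score (log axis). Grey bars are all PU.1 peaks in bins of score, and each symbol is a site of the window, placed at its own PU.1 score and at the share among peaks within 10% of that score, with diamonds for sites that carry MITF and circles for those that do not. Diamonds fall from 3 in MPs to 2 at 36 h and 1 in OCs, and the circles at the right of the later panels are the +3.2 kb site, at 53.4% and 41.1%.

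The 100 bp on each side of every centre were searched for motif letters on both strands, and the counts are a description of these windows. GAGGAA and GGAAGT, both with the GGAA core and able to overlap each other, were found at 10 and 16 of the 22 PU.1 peaks of OCs, or 45.5% and 72.7%, beside 58.7% and 62.9% of all PU.1 peaks of that list. Of the 5 highest sites, +15.2 kb held both, +3.2 and +2.1 kb held GGAAGT, and the promoter and +22.2 kb held neither. The GGAAGT match was 3.50 bp from the centre at +3.2 kb and 1.50 bp at +2.1 kb, but 35.5 bp at +15.2 kb.

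The E-box letters CACGTG were at 0 of the 22 peaks, beside 3.29% of all, and CATGTG at 1, or 4.55% beside 14.4%, at -38.1 kb, which had no MITF peak. The 3 MITF peaks of MPs held neither. Of all MITF peaks of that list 2.94% held CACGTG and 14.5% CATGTG, beside 3.23% and 14.7% of all PU.1 peaks of MPs. These letters were thus no commoner in the whole MITF list than in the PU.1 list, and little can be read from 3 peaks. The AP-1 letters TGANTCA were at 3 sites, all in introns of Csf1r, namely +3.2, +14.5 and +15.2 kb, or 13.6% of the OC peaks beside 10.5% of all. The RUNX letters TGTGGT were at 5 of the 22 (22.7% beside 16.8%), and the C/EBP letters TTGCNNAA at 1 (4.55% beside 10.8%). At +3.2 and +14.5 kb letters of PU.1, AP-1 and RUNX stood together, within 41.5 bp of the centre at both sites. The share of all PU.1 peaks that hold such a combination was not counted, so nothing particular to the locus is read from it.

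Over 22367 protein-coding genes, PU.1 scores were summed in the gene and within 50 kb of it. Csf1r ranked 1211 in MPs, 633 at 36 h and 958 in OCs, which is within the top 5.41%, 2.83% and 4.28%, with the median gene at 204.7, 187.7 and 208.4. For MITF it ranked 605, 1737 and 3063. Longer genes have longer windows, and neighbours share peaks: Pdgfrb had nearly the same sums, 950.1, 1002 and 1013, because its window holds the sites of Csf1r. For comparison, Tnfrsf11a, which encodes the receptor of RANKL, had 1032, 845.5 and 975.0, and Spi1, the gene of PU.1, had 909.1, 910.5 and 967.7. Csf1r was thus below Tnfrsf11a in MPs and OCs and above it at 36 h by these sums. Tnfrsf11a is the longer gene, with 67259 bp against 26578 bp, and the sums were not scaled to the length of the window. The order therefore does not compare the density of PU.1 signal. No test of these orders was possible with 1 library each.

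**Figure D5:**
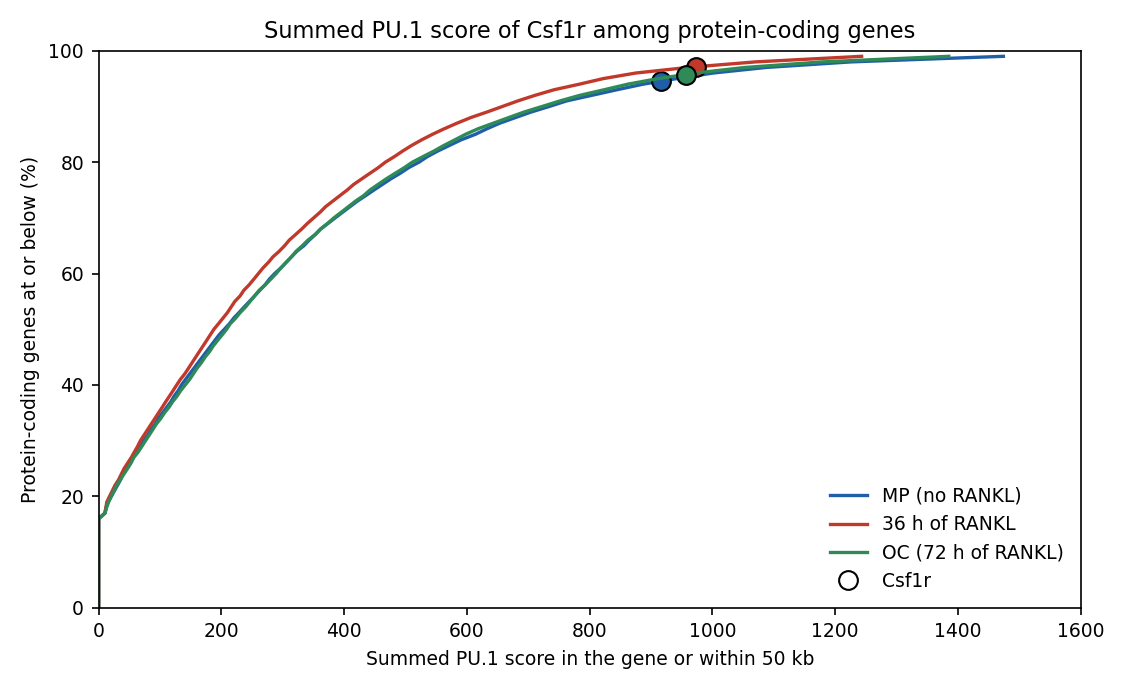
Percentage of protein-coding genes at or below a given summed PU.1 score in the gene and within 50 kb (horizontal axis, scaled tags), 1 line per library, drawn to the highest percentile point. Circles mark Csf1r at 916.0 in MPs, 972.7 at 36 h and 957.5 in OCs, in the uppermost part of each curve.

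The genes most like Csf1r in their sums over the 6 lists were taken by the Euclidean distance of log2(sum + 1). Genes whose window overlapped that of Csf1r, such as Pdgfrb, or that of a gene already taken were left out. They were Myof at 0.466, 3110009E18Rik at 0.468, Atad5 at 0.480, Pdpk1 at 0.498 and Pion at 0.520. Myof had PU.1 sums of 822.0, 818.9 and 835.4 and MITF sums of 39.40, 45.70 and 16.00.

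The pathway around the receptor was described with a list of 20 genes for its ligands, related receptors and signalling proteins. All 20 had a PU.1 peak in their window in each list, as did 83.8%, 83.3% and 83.8% of all protein-coding genes, so the count is not particular to the pathway. Their median summed PU.1 scores were 635.4, 622.2 and 680.6, and 6 of the 20 were above Csf1r at each time. Among the 6 was the related receptor gene Pdgfrb, whose window holds the sites of Csf1r and which is therefore no separate locus. Of the ligands, Csf1 had sums of 523.6, 524.7 and 522.8 and Il34 206.5, 267.6 and 253.9. Of the related receptors, Kit, at 191.0, 162.5 and 114.5, and Pdgfra, at 85.20, 45.80 and 51.30, were below the median gene at each time. Flt3, at 203.1, 229.0 and 278.9, was below it in MPs and above it later.

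The signalling genes held the highest values. Inpp5d, which encodes the inositol phosphatase SHIP1, had 1813, 1602 and 1731, and the adaptor gene Grb2 had 1467, 1443 and 1489. Gab2, an adaptor gene too, had 1474, 1166 and 1473. Inpp5d and Grb2 were also high for MITF, at 104.8, 177.2 and 95.80 for Inpp5d and 101.9, 169.2 and 76.50 for Grb2. The guanine nucleotide exchange factor gene Sos1 was at the other end, with PU.1 sums of 30.70, 51.60 and 79.30 and MITF sums of 0. Between MPs and 36 h, 3 of 236 PU.1 pairs in the windows of the list were called, or 1.27%, beside 1.05% of the genome. All 3 were higher, beside 0.341% called higher in the genome, with 1 each at Grb2, at Gab2 and at Pdgfrb, where it was the +22.2 kb site of Csf1r again. With the beta-binomial test 1 pair of the whole genome was called. In the other comparisons of PU.1, and for MITF between MPs and OCs, 0 pairs were called by the exact binomial test.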

How the data were processed

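Reads were aligned by the authors to mm9 (Bowtie2), peaks were called in each library by HOMER, and the authors deposited 1 list per library. The HOMER peak score deposited by the authors is the tags of a peak scaled to a common library size. CASAVA 1.8 is also named in the submitters' processing notes. Calling settings were not given in the sources used here, and no input was subtracted again. Assuming that HOMER scaled to 10000000 tags, libraries held 5860000 to 6810000 (PU.1), 8760000 to 10270000 (MITF) and 3120000 (IgG) tags.

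Tags were recovered from the scores to within 0.05 score units. Peaks were matched by 1 bp of overlap, and classes taken from GENCODE vM1 at the peak centre, a promoter being within 1 kb of the gene start. Sites with MITF and the 5 highest PU.1 sites were described in full. The 5 most similar genes with windows apart from that of Csf1r were named by distance. Spi1 was matched through an older symbol. Members, lists and tests were chosen with earlier results of these data known. On simulated tags 184 of 200 4-fold changes between MPs and 36 h were recovered, with 5 of the unchanged pairs called. These tags varied by counting alone, and changes were set only in pairs with more tags on average than the +22.2 kb site. The figures therefore do not describe the weaker sites of the window, or libraries that differ by more than counting. Alternatives were other thresholds, flanks, matching, scaling and stitching. Python 3.11.15, numpy 2.4.6, scipy 1.17.1, matplotlib 3.10.9 and samtools 1.23.1 were used.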

Additional observations from a re-analysis of the deposited data

How the results depend on the processing

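A minimum score of 2 times that of the lowest peak in each list left 1, 1 and 0 MITF peaks in the window at MP, 36 h and OC, and 1, 1 and 0 PU.1 sites with MITF. This threshold also removed the MP peak at +22.2 kb, which left 0 called pairs between MPs and 36 h, and the beta-binomial test, added after the data had been seen, likewise gave 0 (at +22.2 kb p = 0.00202, adjusted p = 1.0). The score threshold put the stitched region at ranks 127, 57 and 117. Stitching at 5 kb gave a shorter region without the +15.2 kb site, at ranks 85, 64 and 87. Stitching at 20 kb gave a longer one with the sites in Pdgfrb, at 489, 279 and 405. With a flank of 25 kb the summed PU.1 score ranked 617, 390 and 574 among genes, and with 100 kb 2686, 1434 and 1808, and MITF then had 2 peaks in OCs. Scaling by library sizes turned the sign of differences near 0: for 36 h against MPs at 3 of 15 sites (-38.1, -14.7 and +2.1 kb, the last to -0.05), for OCs against 36 h at 1 of 17 (+2.1 kb, to 0.10), and for the MITF minus PU.1 difference at +15.2 kb, to -0.03. Under matching by centres within 100 bp or by 50% reciprocal overlap, removal of IgG peaks and lists of equal size, each count stayed within 1.5 times its value. No paired analysis was possible because each condition has 1 library. The lists hold 6 to 10 tags at their lowest peaks, so weaker binding is not visible.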
